A study of Arabidopsis thaliana with 6 samples.

Results

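The 46 nuclear genes described here had 2- to 4-fold less transcript signal in yaf9a yaf9b seedlings than in wild type (WT). A probe set was taken when it listed 1 gene on chromosomes 1 to 5, when the mean of the WT arrays exceeded the mean of the mutant arrays by at least 1 and by less than 2 on the log2 scale, and when every mutant array lay below every WT array. These conditions were met by 46 of 13367 such probe sets (0.344%), each for a different gene, out of 22746 probe sets on the array without controls. The differences between genotypes therefore chose the genes and are given as a description, with no test. PDF1.2, a defensin gene, was left out by name, and its arrays overlapped between genotypes in any case.

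The samples were whole Arabidopsis thaliana seedlings of the Col-0 ecotype, wild type or yaf9a yaf9b double mutant, with alleles not given in the sources used here. Untreated plants of both genotypes spent 20 days on agar in short days (8 h of light, 16 h without) at 22 °C and were harvested at ZT8, when the light period ended. Each genotype had 3 biological replicates of about 250 mg of seedlings, with 1 array each. In whole seedlings, fewer cells of a type and less RNA per cell cannot be told apart.

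YAF9A and YAF9B are YEATS-domain proteins, which bind acylated histone tails. They belong to NuA4, a complex that acetylates histones, and to SWR1, which places the histone variant H2A.Z into nucleosomes near gene starts. Both complexes act on many genes, and in Arabidopsis they are best known for the control of flowering time and of genes that respond to temperature, pathogens and light. The genes below are ordered by what their products do, with roles given as general background. Signals are log2 values, listed for arrays 1, 2 and 3 of WT and then of the mutant.

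The median signal of an array was 5.99 to 6.06 (log2). Across probe sets, arrays correlated (Pearson) at 0.993 to 0.995 within WT, 0.989 to 0.996 within the mutant and 0.98 to 0.987 between genotypes. Of the probe sets that list 1 gene, 0 named YAF9A or YAF9B, and the genotype labels were not checked through the mutated genes.

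Among the 46 genes the median difference was 1.19 on the log2 scale (2.28-fold lower), from 1.00 to 1.88 (2.00- to 3.67-fold). The genes crowded at the smaller end: 16 differed by less than 1.1, 22 by 1.1 to less than 1.5 and 8 by 1.5 or more. The distance from the lowest WT array to the highest mutant array was 0.70 at the median and ran from 0.10 for the peroxidase gene Prx37 to 1.38 for the dioxygenase gene LigB. It was at least 0.5 in 36 genes and at least 1 in 7. Of the 46, 42 were lower at a limma adjusted p under 0.05, against 6.61% of all probe sets lower and 6.52% higher, but the rule used the same contrast and nothing is read from this count. The 4 that did not pass were AT1G30700, AT3G23550, AT4G39670 and B120. Another 11 lost the call in at least 1 alternative fit, among them Prx37, called in 9 of 15 fits, and BGLU46, called in 10 of 15.

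**Figure D1:**
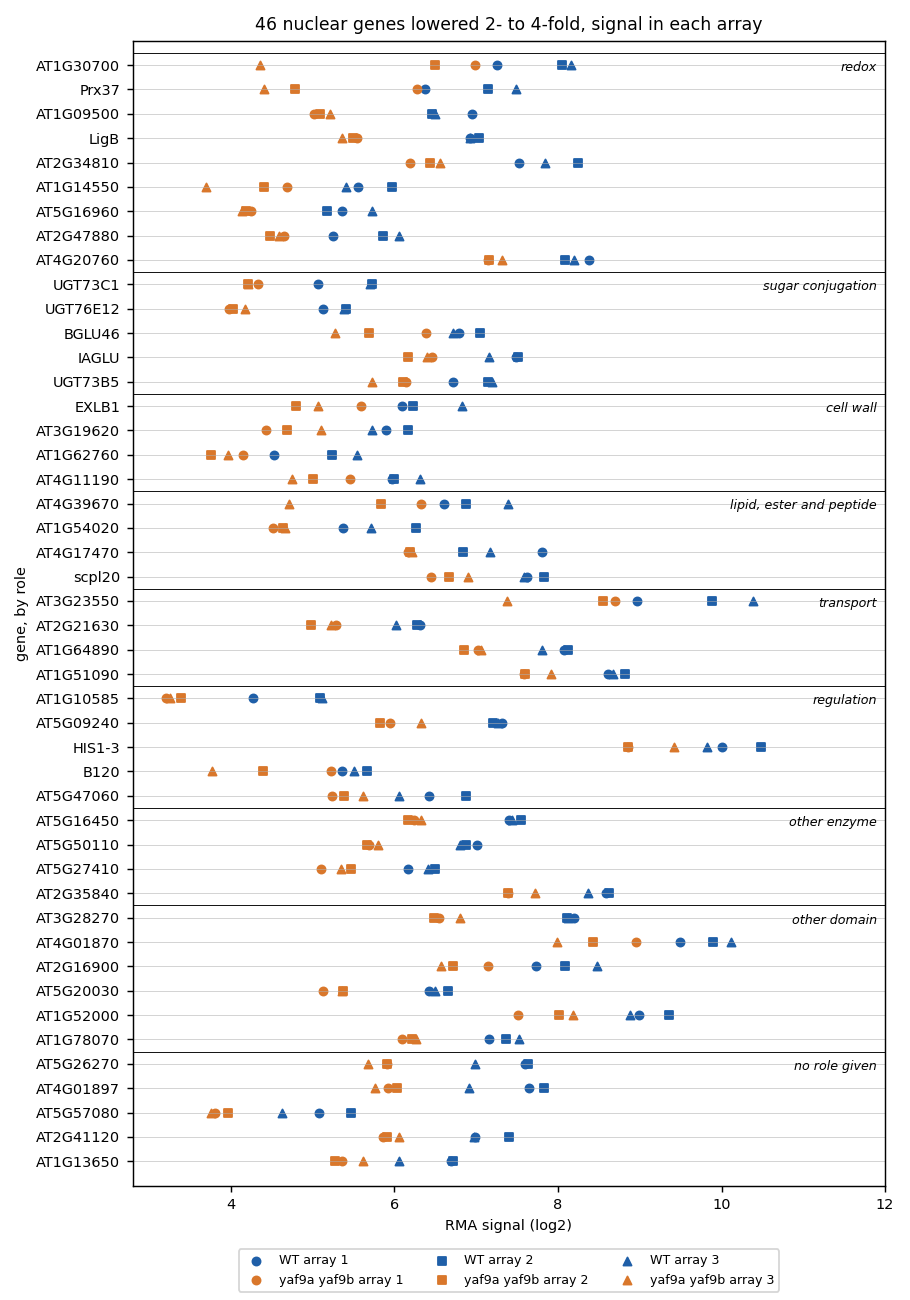
Each row is 1 gene, grouped by role, with its RMA signal (log2, horizontal axis) in the 3 WT arrays (blue) and the 3 yaf9a yaf9b arrays (orange); the marker shape gives the replicate number. Every orange marker lies left of every blue marker in its row, by 0.10 (Prx37) to 1.38 (LigB).

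Redox enzymes formed the largest group, with 9 genes and a median difference of 1.47 (2.77-fold lower). Class III peroxidases are secreted enzymes that use hydrogen peroxide to oxidise phenolics in the cell wall. Prx37, which encodes one of them, read 6.37, 7.14 and 7.48 in WT arrays 1, 2 and 3 and 6.27, 4.78 and 4.40 in the mutant arrays, 3.6-fold lower on average. WT array 1 and mutant array 1 were almost level, and mutant array 3 was the lowest. AT1G14550, of the same enzyme class, read 5.55, 5.97 and 5.41 in WT and 4.69, 4.40 and 3.69 in the mutant (2.61-fold lower), again with mutant array 3 lowest.

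AT1G30700 and AT2G34810 encode FAD-binding enzymes of the berberine bridge enzyme-like family, which oxidise alcohols and sugars. AT1G30700 had the largest mean difference of the 46, 1.88, yet its mutant arrays spread widely: WT read 7.25, 8.05 and 8.16 and the mutant 6.99, 6.49 and 4.35. Mutant array 3 was the lowest by more than 2 log2 units, mutant array 1 was 0.26 below the lowest WT array, and mutant array 2 lay between them. AT2G34810 read 7.52, 8.24 and 7.84 in WT and 6.19, 6.44 and 6.56 in the mutant (2.77-fold lower), with a mutant SD of 0.189 and a gap of 0.96.

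LigB encodes a ring-cleaving dioxygenase that acts on catechol-like phenolics and, in Arabidopsis, makes pyrone metabolites. It was the gene with the cleanest separation: 6.92, 7.03 and 6.92 in WT, 5.54, 5.49 and 5.36 in the mutant, 2.82-fold lower with SDs of 0.0635 and 0.0929 (n = 3). AT1G09500, a NAD(P)-dependent enzyme resembling cinnamyl alcohol dehydrogenase, was nearly as well separated, at 6.95, 6.46 and 6.50 in WT and 5.02, 5.09 and 5.21 in the mutant (2.89-fold lower). Cinnamyl alcohol dehydrogenases make the alcohols from which lignin is built.

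AT5G16960 encodes a zinc-binding dehydrogenase related to the alkenal reductase AER, which detoxifies reactive carbonyls. Its signal was 5.36, 5.18 and 5.72 in WT and 4.25, 4.19 and 4.13 in the mutant (2.35-fold lower), with the mutant arrays within 0.12 of each other. AT2G47880 encodes a glutaredoxin, a small thiol-disulphide oxidoreductase, and read 5.25, 5.86 and 6.06 in WT against 4.65, 4.48 and 4.59 in the mutant (2.22-fold lower). AT4G20760, of the Rossmann-fold dehydrogenase family, read 8.38, 8.09 and 8.19 and 7.14, 7.15 and 7.32 (2.02-fold lower) and sat just inside the lower bound.

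A second group of 5 genes attaches or removes sugars on small molecules, with a median difference of 1.07 (2.09-fold lower). UDP-glycosyltransferases (UGTs) transfer a sugar to hormones, phenolics and toxins, which usually makes them inactive or ready for storage. UGT73C1 can glucosylate cytokinins, and its signal was 5.07, 5.73 and 5.70 in WT and 4.33, 4.21 and 4.21 in the mutant (2.38-fold lower). UGT76E12 read 5.13, 5.41 and 5.38 in WT and 3.98, 4.03 and 4.17 in the mutant (2.37-fold lower). In both genes every mutant array lay below 5.09, the 40th percentile of mean signal over all probe sets.

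UGT73B5, linked to redox balance during pathogen attack, read 6.72, 7.14 and 7.19 in WT and 6.14, 6.11 and 5.72 in the mutant (2.04-fold lower). IAGLU encodes a glucosyltransferase of the auxin indole-3-acetic acid, and read 7.49, 7.51 and 7.16 against 6.46, 6.16 and 6.40 (2.07-fold lower), with the genotypes 0.70 apart. BGLU46 encodes a beta-glucosidase that releases lignin precursors from their glucosides. It read 6.79, 7.04 and 6.71 in WT and 6.38, 5.69 and 5.27 in the mutant (2.09-fold lower), mutant array 1 being only 0.33 below the lowest WT array.

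Cell wall proteins made up 4 genes, with a median difference of 1.17 (2.25-fold lower). EXLB1, an expansin-like gene of a family named for wall loosening, read 6.09, 6.23 and 6.82 in WT and 5.59, 4.79 and 5.06 in the mutant (2.35-fold lower). AT3G19620 encodes a glycosyl hydrolase resembling beta-xylosidases, which trim xylose from wall polysaccharides, and read 5.90, 6.17 and 5.73 against 4.43, 4.69 and 5.10 (2.29-fold lower). AT1G62760 belongs to the inhibitors of invertase and pectin methylesterase and read 4.53, 5.24 and 5.54 against 4.15, 3.76 and 3.97 (2.21-fold lower). The WT arrays of AT1G62760 were among the most spread of the 46 (SD 0.519). AT4G11190 encodes a dirigent protein, a class that steers the coupling of phenoxy radicals, and read 5.97, 5.99 and 6.31 against 5.46, 5.0 and 4.75 (2.03-fold lower).

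Another 4 genes encode enzymes or carriers acting on lipids, esters and peptides (median difference 1.13, 2.18-fold). AT4G39670, of the glycolipid transfer protein family, read 6.61, 6.88 and 7.39 in WT and 6.33, 5.83 and 4.71 in the mutant (2.53-fold lower), with mutant array 3 far below the others. AT1G54020, a GDSL-type lipase gene, read 5.37, 6.26 and 5.71 against 4.52, 4.64 and 4.66 (2.26-fold lower). AT4G17470 resembles palmitoyl-protein thioesterases, which remove fatty acids from proteins. Its mutant arrays were nearly identical, at 6.17, 6.19 and 6.22, while WT read 7.81, 6.84 and 7.17 (2.11-fold lower). The serine carboxypeptidase-like gene scpl20 read 7.62, 7.83 and 7.58 against 6.45, 6.67 and 6.90 and was 1 of the genes nearest the lower bound (2.00-fold).

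Transport was represented by 4 genes, with a median difference of 1.03 (2.04-fold lower). AT3G23550 encodes a MATE efflux carrier, a family that exports metabolites and toxins. It was bright in both genotypes, 8.96, 9.88 and 10.38 in WT and 8.70, 8.55 and 7.37 in the mutant (2.89-fold lower), and had the largest WT SD of the 46 (0.720). AT2G21630, of the Sec23/Sec24 coat proteins that form vesicles at the endoplasmic reticulum, read 6.31, 6.27 and 6.02 against 5.28, 4.98 and 5.22 (2.06-fold lower). AT1G64890, a major facilitator superfamily carrier, read 8.07, 8.12 and 7.80 against 7.02, 6.85 and 7.06 (2.03-fold lower). AT1G51090, with a heavy metal-associated domain, read 8.61, 8.82 and 8.67 against 7.58, 7.60 and 7.91 (2.00-fold lower). In the last 3 genes the genotypes lay 0.70 to 0.74 apart.

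Regulators numbered 5, with a median difference of 1.06 (2.08-fold lower). HIS1-3 encodes a linker histone H1 variant induced by drought, which competes with the main H1 forms for nucleosomes. It had the highest WT signal of the 46, 10.01, 10.48 and 9.82, and read 8.86, 8.86 and 9.42 in the mutant (2.08-fold lower). AT1G10585, of the basic helix-loop-helix transcription factors, had the lowest WT signal, 4.27, 5.09 and 5.11, and read 3.21, 3.39 and 3.26 in the mutant (2.90-fold lower). Its mutant mean of 3.29 was the only one of the 46 below the lower quartile of mutant means over all nuclear probe sets (3.75).

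AT5G09240, of a family of transcriptional regulators that bind single-stranded DNA, read 7.31, 7.20 and 7.27 in WT and 5.94, 5.82 and 6.33 in the mutant (2.35-fold lower), with a WT SD of 0.0557. B120 encodes an S-locus lectin receptor kinase. Its WT arrays were close, at 5.36, 5.66 and 5.50, but the mutant arrays read 5.22, 4.39 and 3.77, so mutant array 1 was 0.14 below the lowest WT array while mutant array 3 was far below. AT5G47060, a small zinc finger gene of the FCS-like family, read 6.42, 6.88 and 6.05 against 5.23, 5.38 and 5.62 (2.06-fold lower).

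Other enzymes (4 genes, median difference 1.12, 2.17-fold) included AT2G35840, a sucrose-phosphate phosphatase gene for the last step of sucrose synthesis. It read 8.59, 8.62 and 8.37 in WT and 7.39, 7.39 and 7.72 in the mutant (2.04-fold lower). AT5G16450, an RraA-like gene, read 7.40, 7.55 and 7.44 against 6.24, 6.16 and 6.33 (2.33-fold lower). AT5G50110, of the methyltransferase superfamily, read 7.01, 6.88 and 6.80 against 5.69, 5.66 and 5.80 (2.27-fold lower). In AT5G16450 and AT5G50110 both genotypes were tight, with SDs of 0.0737 to 0.106. AT5G27410, resembling D-amino acid aminotransferases, read 6.16, 6.50 and 6.41 against 5.10, 5.47 and 5.35 (2.07-fold lower).

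The 6 genes with a recognised domain but no settled reaction had a median difference of 1.27 (2.40-fold lower). AT3G28270, an At14a-like gene of a family with an integrin-like region, had the smallest WT SD of the 46 (0.0493). It read 8.20, 8.11 and 8.12 in WT and 6.55, 6.48 and 6.80 in the mutant (2.89-fold lower), with the genotypes 1.31 apart. AT1G52000, a jacalin lectin gene, read 8.99, 9.36 and 8.88 against 7.51, 8.01 and 8.18 (2.26-fold lower). Jacalin lectins bind sugars, and several of the family assemble with myrosinase. AT4G01870, whose product resembles the bacterial protein TolB, read 9.49, 9.89 and 10.12 against 8.95, 8.43 and 7.99 (2.60-fold lower). AT2G16900, of the PEARLI 4 family, read 7.73, 8.08 and 8.48 against 7.14, 6.71 and 6.57 (2.45-fold lower). AT5G20030, a Tudor-like gene, and AT1G78070, a WD40 repeat gene, were both well separated (1.05 and 0.90). The former read 6.42, 6.66 and 6.49 against 5.12, 5.37 and 5.36, and the latter 7.16, 7.36 and 7.52 against 6.09, 6.21 and 6.26.

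No role is given here for 5 genes, whose median difference was 1.21 (2.32-fold lower). AT5G26270 and AT4G01897 were among the largest differences of the whole set. AT5G26270 read 7.60, 7.63 and 6.98 in WT and 5.91, 5.91 and 5.68 in the mutant (2.97-fold lower). AT4G01897 read 7.64, 7.83 and 6.91 against 5.92, 6.03 and 5.76 (2.94-fold lower). Both had WT array 3 as the lowest WT array. AT5G57080 read 5.08, 5.47 and 4.63 against 3.81, 3.97 and 3.76 (2.32-fold lower). AT2G41120 read 6.99, 7.40 and 6.97 against 5.86, 5.91 and 6.06 (2.26-fold lower), and AT1G13650 6.69, 6.71 and 6.06 against 5.36, 5.27 and 5.62 (2.1-fold lower).

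The WT signal of the 46 genes was mostly intermediate. The WT means had a median of 6.98 and quartiles of 6.12 and 7.78, from 4.82 for AT1G10585 to 10.10 for HIS1-3. Over all 13367 nuclear probe sets the WT median was 5.49, with quartiles of 3.71 and 7.43, and 41 of the 46 lay above that median, 15 above the upper quartile and 0 below the lower. A probe set's signal depends on its probes as well as on its transcript, so these values do not rank the genes by abundance. A probe set near the bottom of the scale has little room to be lower by the required amount, so the rule itself favours brighter WT signals. The mutant means had a median of 5.75, from 3.29 to 9.05. By the mean over all 6 arrays, 38 of the 46 lay above the 40th percentile of all probe sets (5.09) and 8 below it.

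**Figure D2:**
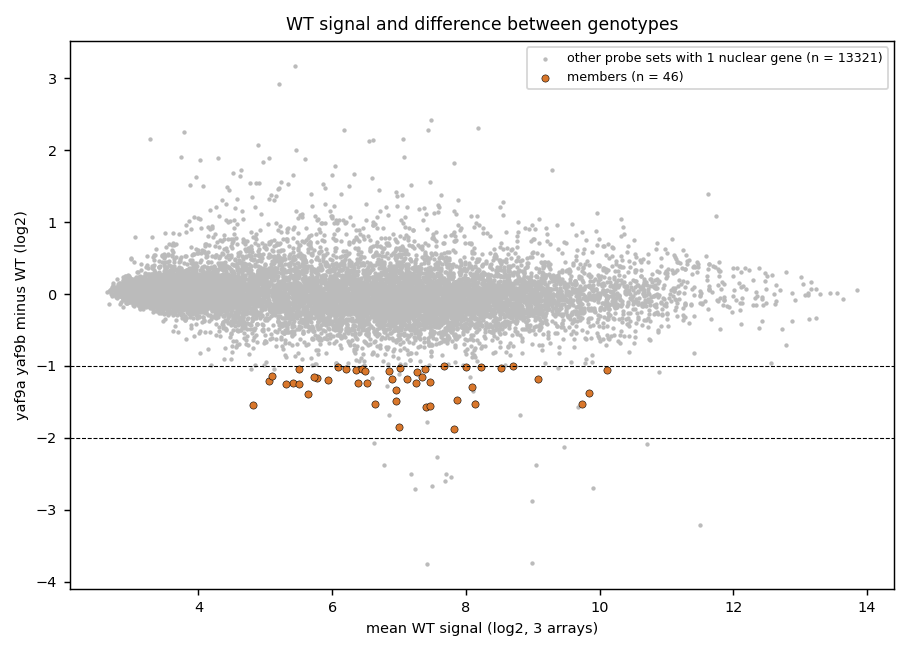
Each point is a probe set with 1 nuclear gene; the horizontal axis gives its mean WT signal (log2) and the vertical axis the yaf9a yaf9b minus WT difference of means (log2). The 46 genes (orange) lie between the dashed lines at -1 and -2, with WT means from 4.82 to 10.10; grey points between the lines are genes whose arrays overlapped.

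Array by array, the median over the 46 genes was similar in the 3 mutant arrays: -1.17, -1.23 and -1.15 relative to the WT mean for mutant arrays 1, 2 and 3 on the log2 scale. The spread over genes was not. The mutant minus WT mean difference ran from -2.22 to -0.89 for mutant array 2, from -1.68 to -0.29 for mutant array 1 and from -3.47 to -0.68 for mutant array 3. Single mutant arrays were at least 2-fold below the WT mean in 31 genes for array 1, 44 for array 2 and 33 for array 3, and in 20 genes all 3 were. Set against the mutant mean, WT arrays 1, 2 and 3 were higher by 1.09, 1.30 and 1.17 at the median. WT array 2 was the highest WT array in 25 of the 46 genes and in 3585 of all 13367 nuclear probe sets.

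In 8 genes the arrays of both genotypes fanned out in a common way: WT array 1 was the lowest and WT array 3 the highest WT array, while mutant array 1 was the highest and mutant array 3 the lowest mutant array. These were AT1G30700, Prx37, AT3G23550, AT4G01870, AT4G39670, AT2G16900, UGT73B5 and AT4G11190. Arrangements of this kind were held by 17.4% of the 46 genes and by 3.73% of all nuclear probe sets. For these 8 genes the arrays numbered 1 differed by 0.10 to 0.59 between genotypes (median 0.40), those numbered 2 by 0.99 to 2.36 (median 1.35) and those numbered 3 by 1.47 to 3.81 (median 2.41). In the remaining 38 genes the corresponding medians were 1.16, 1.38 and 1.09. The rise from number 1 to number 3 in the 8 genes follows from the array order that picked them. It and the contrast with the 38 are a description only. Replicate numbers are only names, and nothing in the labels pairs them across genotypes.

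**Figure D3:**
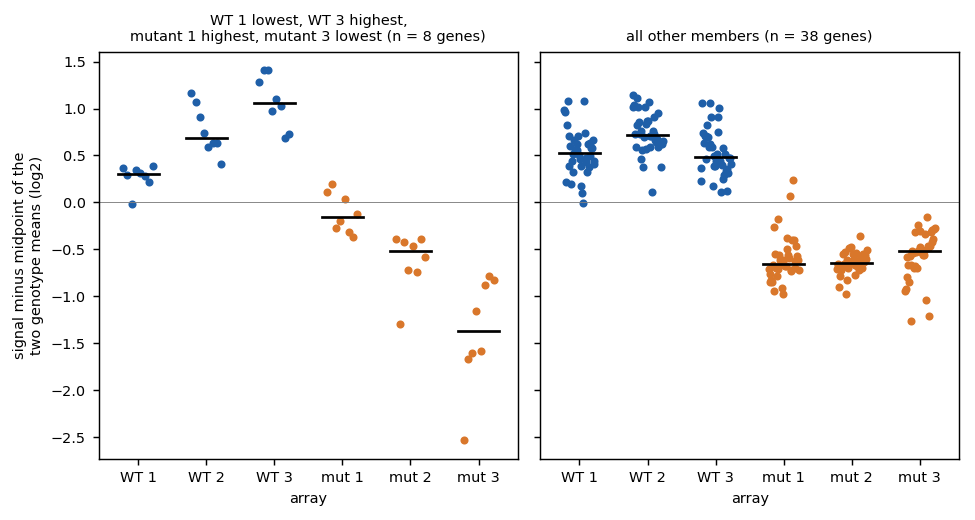
Points are genes, placed by array (horizontal axis) and by signal minus the midpoint of both genotype means (log2, vertical axis); bars are medians over genes. In the 8 genes on the left the mutant arrays spread from a median just under the midpoint (array 1) to well below it (array 3), while in the 38 genes on the right the array medians of a genotype lie close together. The array order on the left follows from how the 8 genes were picked.

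The same fan appeared outside the rule's bounds. Another 15 genes met the size condition but not the condition on arrays, and in each of them WT array 1 was the lowest WT array and lay below mutant array 1. Overlap set these genes apart, so some WT array had to lie at or below some mutant array. Where the fan holds, WT array 1 below mutant array 1 follows from that selection. Which arrays overlapped was not fixed by it. In 13 of the 15 all 4 positions of the fan were filled. OSM34, which encodes the stress protein osmotin, read 8.17, 10.11 and 10.76 in WT and 9.18, 9.15 and 5.98 in the mutant. CHI (AT2G43570), a chitinase gene, read 6.94, 8.45 and 9.0 against 8.12, 7.03 and 4.72, and AT5G38900 6.60, 7.53 and 8.14 against 7.11, 5.67 and 4.17. NDB2, an alternative NADH dehydrogenase gene of mitochondria, came closest to separating, with 6.05, 6.59 and 7.13 in WT and 6.09, 5.50 and 4.67 in the mutant. It was followed by SBT3.3, a subtilase gene linked to immune priming (4.14, 5.23 and 6.02 against 4.19, 4.06 and 4.01). By limma 0 of the 15 passed the adjusted threshold, and 7 had an unadjusted p under 0.05. Over all 22746 probe sets 6317 had an unadjusted limma p under 0.05, counting both directions. Among the 14 nuclear genes that were separate and at least 4-fold lower, 7 had the fan. Without WT array 1 the rule took 72 genes in place of 46, of which 37 were shared. Leaving out any array removes some of the conditions on arrays. The rule took 37 and 58 genes without WT arrays 2 and 3, and 64, 41 and 56 without mutant arrays 1, 2 and 3.

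**Figure D4:**
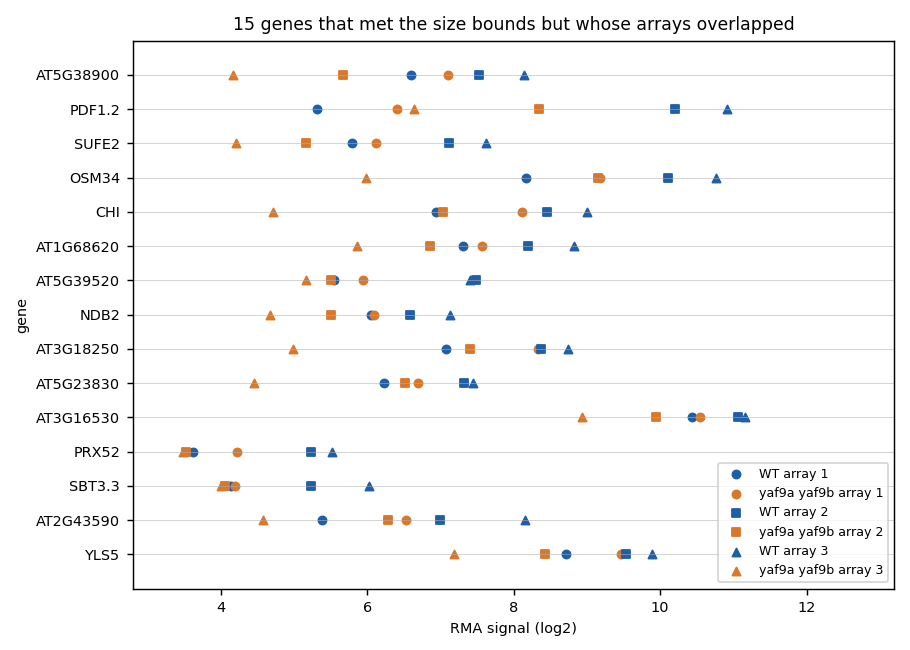
Rows are the 15 genes whose mean difference was within the bounds but whose arrays overlapped; the horizontal axis is the RMA signal (log2), blue for WT and orange for yaf9a yaf9b, with marker shape for the replicate number. The blue circle (WT array 1) lies left of the orange circle (mutant array 1) in every row.

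The lower bound cut through a dense part of the distribution. Just inside it lay scpl20 and AT1G51090 (both 1.00), AT4G20760 (1.02) and AT4G11190 (1.02). Just outside were AT5G12930, AT1G48330 and AT5G19890 (0.99 each) and AT5G41650 (0.99). AT5G41650 read 6.47, 6.67 and 6.30 in WT and 5.45, 5.42 and 5.61 in the mutant, as well separated as its neighbours inside. The upper bound fell in a sparse stretch: the nearest genes inside were AT1G30700 (1.88) and Prx37 (1.85), then AT5G26270 (1.57) and AT4G01897 (1.56). Beyond it came AT3G09405 (2.07), AT1G66100 (2.09), AT4G11410 (2.26) and CCOAMT (2.37).

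A second probe set listing the same gene was present for 2 of the 46. For AT4G20760 it read 7.09, 6.72 and 6.93 in WT and 6.14, 6.03 and 6.18 in the mutant, 1.74-fold lower with separate genotypes. For AT1G62760 it read 4.0, 3.79 and 4.07 in WT and 3.96, 4.06 and 4.23 in the mutant. This dimmer probe set did not show the difference of the first, and which of the 2 follows the transcript was not tested. None of the 46 probe sets carried a suffix that marks probes shared between genes.

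The genes were spread over all chromosomes, with 12 on chromosome 1, 9 on 2, 4 on 3, 12 on 4 and 9 on 5. Chromosome 4 held 26.1% of them and 14.7% of all nuclear probe sets, and chromosome 3 held 8.70% and 20.5%. No member was next to another member. AT4G01870 and AT4G01897 were the closest pair, with 4 genes between them in the RefSeq order of assembly TAIR10.1.

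The genes next to members were measured as well. Of 46 measured adjacent genes, belonging to 35 members, 2 were lower (4.35%) and 4 higher (8.70%) at a limma adjusted p under 0.05, against 6.11% lower and 5.8% higher among all nuclear genes. The median mutant minus WT difference of the adjacent genes was 0.03, against 0.01 for all nuclear genes, and 21 of 46 lay below 0. The 2 that fell were SWC2, beside UGT73C1, and AER, beside AT5G16960. SWC2, which encodes a SWR1 subunit, fell by 0.48 on the log2 scale (limma adjusted p = 0.0149, or 0.054 without WT array 2 and 0.0542 without mutant array 2). AER, the alkenal reductase gene, fell by 0.45 (adjusted p = 0.0219, or 0.0694 without WT array 2, 0.0679 without mutant array 1 and 0.0806 without mutant array 2). The 4 that rose were BGLU45, beside BGLU46, AT5G47050 and AT5G47070, on either side of AT5G47060, and AT1G64880, beside AT1G64890. The last 3 rose by 0.56, 0.49 and 0.38 on the log2 scale (adjusted p = 0.0476, 0.0167 and 0.0225). Without mutant array 2 these adjusted p-values were 0.109, 0.0764 and 0.0844, and without WT array 2 they were 0.106, 0.0616 and 0.067. AT5G47050 also lost its call without WT arrays 1 or 3 or mutant array 1 (0.132, 0.0772 and 0.0865), and AT1G64880 without WT array 3 or mutant array 1 (0.0546 and 0.0717). Of the 4, BGLU45 alone kept its call without each array in turn. With the replicate number as a block in the fit, SWC2 and AER also lost their calls (limma adjusted p = 0.0523 and 0.0559). So did AT5G47050, AT5G47070 and AT1G64880 (0.127, 0.0691 and 0.0686).

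Some members lie beside a relative, and the neighbours given here are a selection, not every such case. BGLU45, like BGLU46 a glucosidase gene for lignin precursors, lies next to BGLU46 and was higher in the mutant: 6.44, 6.26 and 6.30 in WT and 8.15, 8.00 and 7.85 in yaf9a yaf9b. That rise of 3.17-fold (limma adjusted p = 0.000348, 0.00787 at most over 13 alternatives on probe sets) stands beside the 2.09-fold lower signal of BGLU46. UGT73B4, next to UGT73B5, read 6.33, 6.89 and 7.30 in WT and 6.62, 5.60 and 5.39 in the mutant and did not pass (log2 difference -0.97, adjusted p = 0.107). Its WT array 1 lay below its mutant array 1, as in the 15 genes whose arrays overlapped. UGT73C2, next to UGT73C1, read 3.31, 3.48 and 3.15 in WT and 3.35, 3.48 and 3.51 in the mutant, with no call. AT4G08780, a peroxidase gene next to Prx37, read 3.66, 4.27 and 5.03 in WT and 3.99, 3.6 and 3.63 in the mutant and did not pass either. No difference between a member and its neighbour was tested. Related genes of similar sequence can share probes, and how far they do here was not tested.

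**Figure D5:**
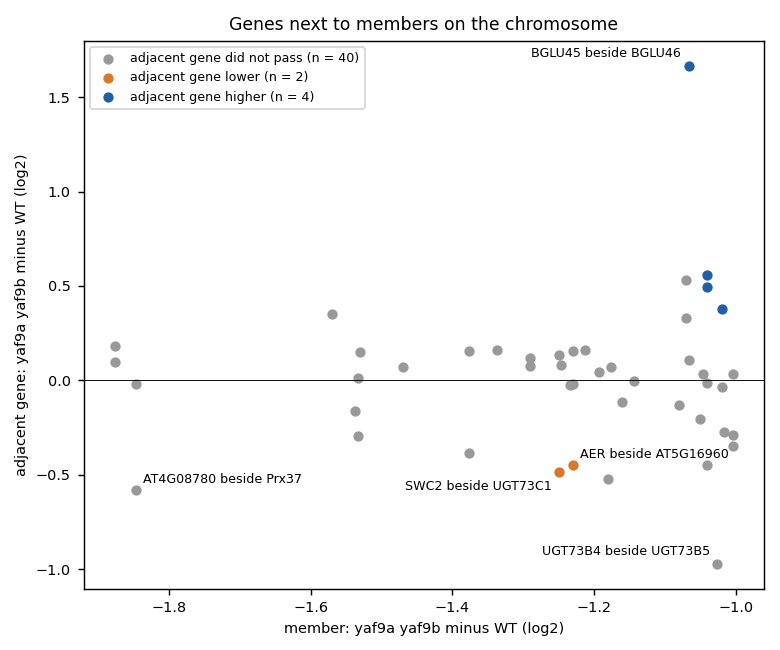
Each point is a gene next to a member on the chromosome; the horizontal axis is the member's and the vertical axis the adjacent gene's yaf9a yaf9b minus WT difference (log2), coloured by the limma call. Most adjacent genes lie near 0, and BGLU45, beside BGLU46, is 3.17-fold higher.

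Other genes of the members' families were counted without the members, the families being picked after the members were known. Over all nuclear genes 6.11% were lower and 5.8% higher. At an unadjusted limma p under 0.05 the count over all 22746 probe sets was 6317, both directions together. Of 44 other UGT genes named by symbol, 2 were lower and 1 higher (median 0.04 on the log2 scale). At an unadjusted limma p under 0.05, 7 of them were lower and 4 higher. UGT84A3, of a clade acting on hydroxycinnamates, fell by 0.61 (limma adjusted p = 0.00881). UGT76E11, a close relative of UGT76E12, fell by 0.97 (adjusted p = 0.0127, or 0.0551 without WT array 2 and 0.0566 without mutant array 2). UGT71B6, which acts on abscisic acid, rose by 0.51 (adjusted p = 0.029), a call that ended without WT arrays 1 or 3 or mutant arrays 1 or 2 (0.087, 0.076, 0.084 and 0.111). A replicate block also ended the calls of UGT76E11 and UGT71B6 (limma adjusted p = 0.0527 and 0.0643). Among 19 other BGLU genes BGLU27 fell by 0.91 (adjusted p = 0.00512) and BGLU45 rose. In that family 3 were lower and 3 higher at an unadjusted limma p under 0.05.

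EXLB1 was lower, whereas of 17 other expansin and expansin-like genes, 5 were higher and 0 lower by limma (2 lower at an unadjusted p under 0.05), with a median of 0.03. The 5 were EXLA1, EXLA2, EXLA3, EXPA9 and EXPA20, higher by 2.42, 1.53, 0.83, 0.62 and 0.70 on the log2 scale (adjusted p = 0.003, 0.0041, 0.0188, 0.0196 and 0.00801). The calls of EXLA3 (0.0659 and 0.0539 without WT arrays 2 and 3) and EXPA9 (0.06 and 0.0731 without WT arrays 1 and 2, 0.0681 without mutant array 2) did not hold throughout. Of 28 other genes for serine carboxypeptidase-like (SCPL) proteins, the family of scpl20, 5 were higher and 1 lower, with a median of 0.05. At an unadjusted limma p under 0.05, 10 were higher and 2 lower, where 6317 of all 22746 probe sets passed in either direction. SCPL34 rose by 0.70 (adjusted p = 0.00655) and kept its call without each array in turn. The rises of scpl35, scpl48, scpl50 and scpl23 (adjusted p = 0.0327, 0.0384, 0.0126 and 0.0411) and the fall of SCPL49 (0.0158) lost their calls without mutant array 2 (0.0817, 0.143, 0.0587, 0.155 and 0.0709). They also did so without WT array 2 (0.111, 0.127, 0.0514, 0.123 and 0.0581), and scpl35, scpl48 and scpl23 without further single arrays (0.0527 to 0.108). A replicate block ended the calls of these 5 genes too (limma adjusted p = 0.0604 to 0.116).

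None of the 46 genes was an entry of the 10 pathway lists, which had 1 to 8 measured genes each. The lists hold gene names, and 35 of the 46 were named by locus tag only, so nothing is read from this. An entry counted as measured only when its name was matched to a probe set that lists 1 gene, and unmatched entries may still be on the array. In the jasmonate list THI2.1, a thionin gene, was the 1 lower gene of 6 (13.4-fold, limma adjusted p = 0.00079, list median -0.21). COR15A and COR15B, for proteins that stabilise chloroplasts during freezing, fell by 0.71 and 0.96 (limma adjusted p = 0.00644 and 0.0086), 2 of 4 in the cold, drought and abscisic acid list. In the flavonoid list DFR and UF3GT, a reductase and a glycosyltransferase of anthocyanin synthesis, fell by 0.66 and 0.52 (adjusted p = 0.012 and 0.0327), 2 of 3. Without mutant array 2 these adjusted p-values were 0.0599 and 0.123, and that of UF3GT was 0.0566 to 0.0958 without WT arrays 1 or 3 or mutant arrays 1 or 3. For DFR and UF3GT they were 0.0534 and 0.0561 with a replicate block.

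In the auxin list GH3.3, for an enzyme that conjugates auxin like IAGLU but to amino acids, was the 1 lower gene of 6 (adjusted p = 0.0498, a call lost without WT arrays 2 or 3 or any mutant array, at 0.0798 to 0.151, and at 0.0578 with cyclic loess and 0.179 with a trended variance), and IAA29, HAT2 and WES1 were higher. The call of HAT2 ended without mutant array 2 (0.0581) and that of WES1 without any 1 array but WT array 3 (0.0865 to 0.104). GH3.3 and WES1 also lost their calls with a replicate block (limma adjusted p = 0.107 and 0.055). Of the 4 starch and sugar genes, AT4G24450, listed under the symbol PWD for a starch-phosphorylating enzyme, rose by 0.99 (adjusted p = 0.00405). A brighter probe set under the same symbol was assigned to a different gene and was not used for the list. It had a WT mean of 10.57 and a mutant minus WT difference of -0.32. The lists on glucosinolates, sulfate and the clock had 0 calls among 2, 3 and 1 measured genes by limma, and 1, 1 and 0 at an unadjusted p under 0.05. With so few measured entries, the lists show little of these pathways.

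Markers of seedling tissues were compared between genotypes because a changed tissue share would alter whole-seedling signals. Of 4 measured root markers 0 passed by limma (0 at an unadjusted p under 0.05). Their summed signal was 12.2 to 12.4 in WT and 11.8 to 12.4 in the mutant on the log2 scale. That sum came almost entirely from PYK10, which read 12.17, 12.43 and 12.28 in WT and 12.26, 12.36 and 11.82 in the mutant. The other root markers had WT means of 3.55 to 4.98. Of 3 leaf mesophyll markers LHCB4.2, a light-harvesting protein gene, fell by 0.33 (adjusted p = 0.0434, or 0.0521 to 0.158 without 1 array and 0.0631 with median centring), with a summed signal of 15.1 to 15.2 in WT and 15.1 in each mutant array. SWEET11, a phloem sugar carrier gene and the only measured vascular marker, rose by 0.38 (adjusted p = 0.0354). Its call ended without WT arrays 2 or 3 or any mutant array (0.0706 to 0.106). LHCB4.2 and SWEET11 also lost their calls with a replicate block (limma adjusted p = 0.121 and 0.0833). The single markers of guard cells, trichomes, shoot apex and senescing leaves did not pass. The part of tissue shares in the differences of the 46 genes was not tested.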

How the data were processed

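Transcripts were measured on Affymetrix ATH1 arrays with biotin-labelled RNA. The deposited values are log2 signals per probe set, 1 column per array, and RMA and the affy package are named in the submitters' processing notes. Their versions, the scan dates and the probe sets' genome build were not given in the sources used here. RMA gives all arrays 1 distribution, which would hide a shift of most transcripts.

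Control probe sets (64) were dropped. Of the other 22746, 13513 listed 1 gene in GEO's platform annotation, 13436 of these matched RefSeq (TAIR10.1) by gene ID, and 13367 lay on chromosomes 1 to 5. The rule for the 46 genes was applied to these. Limma 3.58.1 (R 4.3.3; lmFit, eBayes, two-sided, no covariate) was fitted over all 22746 probe sets with Benjamini-Hochberg adjustment at 0.05, after testing on simulated data. Values are means ± SD over 3 arrays per genotype, which limits precision. Lists used the probe set with the highest mean signal per gene, with entries matched by gene name. CHI was dropped from the flavonoid list because that symbol names a chitinase in the annotation.

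The members, lists and families were chosen with earlier results of these data known. Genes named are all members, the genes nearest the bounds, adjacent or related genes with a call, and some adjacent relatives. Passing list members and the root marker PYK10 are also named. Some of these genes were picked after their values were seen. Roles are general knowledge, not from the files. Promoter and protein sequences were not analysed here. Alternatives were cyclic loess, median centring, a trended and robust variance model, array weights, a filter on dim probe sets, leaving out probe sets with suffix _s_at or _x_at, the mean per gene, the replicate number as a block, and leaving out each array.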

Additional observations from a re-analysis of the deposited data

How the results depend on the processing

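All alternatives were planned. Of the 46 genes, 42 were lower by limma as reported, 32 to 45 without 1 array (32 without mutant array 2), 33 with a replicate block and 37 to 44 in the other fits, where the filter on dim probe sets kept 38 of them. The call held in every fit that contained the gene for 31 of the 46. AT1G30700 passed in 2 of 15 fits, B120 in 2 of 14, AT4G39670 in 3 of 15 and AT3G23550 in 5 of 15. The median difference stayed between -1.25 and -1.14. The rule itself took 40 genes after cyclic loess, 39 after median centring and 37 to 72 without 1 array, the most without WT array 1 (72, of which 37 were among the 46). Leaving out an array also leaves fewer array pairs that must separate. Over all probe sets, 1503 were lower as reported, 2298 with array weights (cause not tested), 824 with the mean per gene, where fewer features were tested, 540 with the replicate block and 406 to 1283 without 1 array, the fewest without mutant array 2 (406), then WT array 2 (643), mutant array 1 (954) and WT array 1 (955), each with fewer arrays. Between arrays sharing a number, deviations from group means had correlations of -0.21, 0.01 and -0.32, and 0 of 6 arrays matched its own number best. Whether a shared number marks shared handling was not tested.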
